A study of Homo sapiens with 4 samples.

Results

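The long arm segment of chromosome 9 described here runs from position 75027771 to position 134443784 of the human genome build hg38, a span of 59.4 Mb. It holds 422 of the 20556 ATAC-seq peaks in the first of the authors' deposited tables and 298 of the 13577 peaks in their second deposited table. A peak was counted as a member when its middle lay between the 2 positions. The other 259 and 198 peaks of chromosome 9 served for comparison. The boundaries were selected on the data: the first is the start of a second-table peak at the CARNMT1 promoter, the last is the end of a second-table peak beyond RXRA, and the fold changes between them were known to be low. The fold changes of the segment are therefore given as a description, without a test against the rest of the chromosome.

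The cells were Kasumi-1, an established acute myeloid leukaemia line that carries the t(8;21) translocation fusing RUNX1 to RUNX1T1. In ATAC-seq a transposase inserts adapters into open chromatin, so the number of fragments at a site reports how accessible it is. There were 4 libraries. In 2 of them the cells carried a SETD8 knockout made with CRISPR/Cas9; SETD8, now named KMT5A, monomethylates histone H4 at lysine 20. The other 2, labelled sgNT, had the genotype WT. The labels give no time after editing, no guide sequence, and no statement on clones or on whether same-group libraries came from separate cultures. The second deposited table compares the knockout and control libraries numbered 2, so it holds 1 library per group and has no replicate check. The libraries behind the first table are not named, so it cannot be taken as a replicate of the second.

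The long arm of chromosome 9 is of interest in this leukaemia because interstitial deletions there recur together with t(8;21). TLE1 and TLE4, corepressors of the Groucho family that lack DNA-binding domains of their own and are recruited by factors such as RUNX1, lie in the commonly deleted stretch. The fragment count of a peak also scales with the number of DNA copies in the cells. Copy number was not measured here, so fewer copies and less open chromatin cannot be told apart, nor can a shift in which cells were present and a change within each cell.

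Across the whole of both tables the deposited levels were lower in the knockout. The median log2 fold change, knockout over control, was −0.87 in the first of the authors' deposited tables and −1.23 in their second. In replicate 2 the knockout library had 2091322 reads in peaks and the control 5350832. Whether the general shift reflects accessibility, depth or scaling was not tested. Values below are read against these medians, because libraries were scaled by the authors and a general shift would enter every peak. Counts at −1 or lower use the fold changes as deposited unless centring is named. Of 8 promoters of myeloid blast genes, 5 had a peak in both tables (CD34, KIT, SPI1, RUNX1 and LMO2) and none was assigned to MPO, CD33 or RUNX1T1. Of 10 promoters of other cell types, 4 had a first-table peak (CD3D, EPCAM, COL1A1 and PECAM1) and 0 a second-table peak. The log2 mean levels of COL1A1 (7.52), EPCAM (7.29) and PECAM1 (6.54) were above that of CD34 (6.48), and CD3D (5.46) was below it. KIT, SPI1, RUNX1 and LMO2, at 7.64 to 10.12, were above all 4. The promoter of the targeted gene, KMT5A, had 251 reads in the knockout and 685 normalised reads in the control library of replicate 2; an open promoter does not report whether the coding sequence was cut, so it is no check of the labels.

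Before the values, 5 promoters of the segment show what kind of sequence lies under these peaks. They are HNRNPK, from the stretch deleted in leukaemia, BRD3 and SECISBP2, among the lowest promoters of the first table, ERP44, among the lowest of the second, and POMT1, the highest strong promoter of the second. A peak is called strong here when its mean level reaches the median of its table, 142 normalised reads in the first and 211 in the second. Each line gives 250 bases immediately before the RefSeq start site, 5′ to 3′ on the strand of the gene, from GRCh38.p14. The positions are chr9:83980616-83980865 (minus strand) for HNRNPK, chr9:134068027-134068276 (minus) for BRD3, chr9:100099001-100099250 (minus) for ERP44, chr9:89318250-89318499 (plus) for SECISBP2 and chr9:131502668-131502917 (plus) for POMT1. Capitals mark exact matches, on either strand, to the 12 motif words counted further on.
HNRNPK: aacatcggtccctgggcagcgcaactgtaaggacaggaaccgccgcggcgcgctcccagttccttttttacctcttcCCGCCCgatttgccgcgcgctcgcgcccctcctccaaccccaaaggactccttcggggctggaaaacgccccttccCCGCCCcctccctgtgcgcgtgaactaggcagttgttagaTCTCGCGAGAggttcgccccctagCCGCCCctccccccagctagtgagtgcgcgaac
BRD3: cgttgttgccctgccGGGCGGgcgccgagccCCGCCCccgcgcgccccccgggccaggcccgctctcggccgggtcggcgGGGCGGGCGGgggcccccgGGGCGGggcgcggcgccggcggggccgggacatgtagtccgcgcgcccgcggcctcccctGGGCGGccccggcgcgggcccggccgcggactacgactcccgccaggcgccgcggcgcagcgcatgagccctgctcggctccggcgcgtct
ERP44: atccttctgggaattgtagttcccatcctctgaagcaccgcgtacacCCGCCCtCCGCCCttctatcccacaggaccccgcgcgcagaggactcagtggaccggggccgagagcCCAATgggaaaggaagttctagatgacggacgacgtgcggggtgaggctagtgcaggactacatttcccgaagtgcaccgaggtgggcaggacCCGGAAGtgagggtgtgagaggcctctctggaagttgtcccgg
SECISBP2: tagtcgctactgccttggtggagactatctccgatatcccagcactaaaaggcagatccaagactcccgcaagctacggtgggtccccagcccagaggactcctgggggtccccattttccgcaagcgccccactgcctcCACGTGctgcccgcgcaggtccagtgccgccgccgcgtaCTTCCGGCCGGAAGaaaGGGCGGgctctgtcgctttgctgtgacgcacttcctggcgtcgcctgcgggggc
POMT1: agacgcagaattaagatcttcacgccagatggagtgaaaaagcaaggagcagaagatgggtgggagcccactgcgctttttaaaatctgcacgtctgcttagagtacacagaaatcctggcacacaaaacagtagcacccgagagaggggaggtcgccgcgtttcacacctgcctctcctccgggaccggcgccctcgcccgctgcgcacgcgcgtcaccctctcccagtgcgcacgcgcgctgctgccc
The HNRNPK, BRD3 and ERP44 windows contain 3, 6 and 2 matches to the SP/KLF word GGGCGG or its reverse complement. SECISBP2 has an E-box CACGTG and 2 matches to the ETS word CCGGAAG in opposite orientation, ERP44 has 1 ETS match and 1 CCAAT word, and HNRNPK has 1 match to the ZBTB33 word. POMT1 has no match to any of the 12 words. The GC content of the windows was 65.6% for HNRNPK, 86.8% for BRD3, 61.6% for ERP44, 65.2% for SECISBP2 and 60% for POMT1.

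Segment peaks lay lower in the knockout, relative to the control, than peaks of the rest of chromosome 9 and of the other chromosomes. In the authors' first deposited table the 422 segment peaks had a median log2 fold change of −1.28, with quartiles of −1.54 and −0.91 and a range from −2.56 to 1.16. The other 259 chromosome 9 peaks had a median of −1.04, and the 19875 peaks of other chromosomes one of −0.86. The 298 segment peaks of the authors' second deposited table had a median of −1.55, with quartiles of −1.75 and −1.34, against −1.275 for the other chromosome 9 peaks and −1.22 elsewhere. The difference between the segment and the rest of its chromosome was thus −0.24 and −0.275 on the log2 scale. Against the rest of the long arm alone it was −0.11 and −0.16, and the long arm before the segment was as low as the segment, with medians of −1.435 over 30 and −1.56 over 21 peaks in the authors' deposited tables. On the linear scale the median ratio of knockout to control was 0.412 and 0.342 in the segment, and 0.547 and 0.426 over all peaks of the 2 tables.

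**Figure D1:**
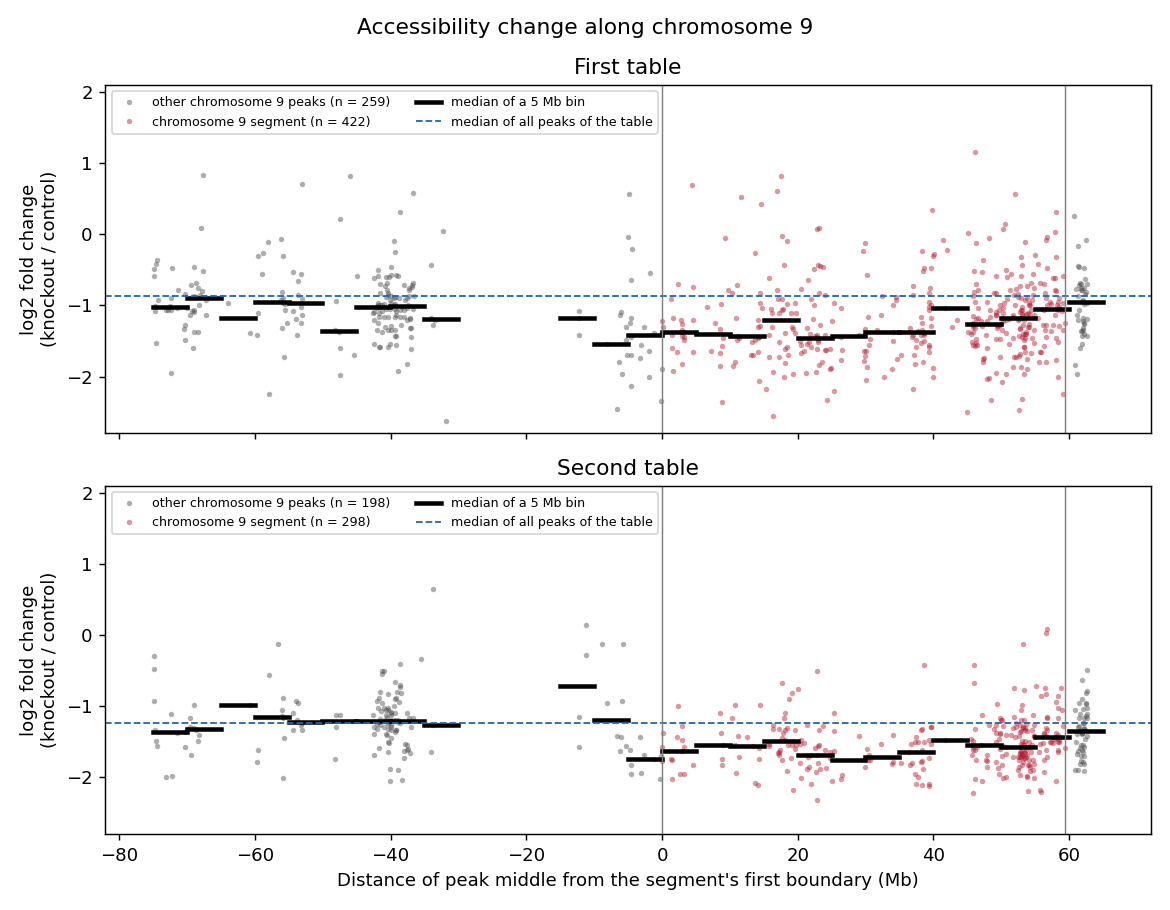
Log2 fold change, knockout over control, of each chromosome 9 peak in the authors' 2 deposited tables, against the distance of its middle from the first boundary in Mb. Vertical lines mark the boundaries, black bars are medians of 5 Mb bins and the dashed line is the median of all peaks. Segment bins lie under the dashed line in both tables, and so do the peaks just before the first boundary. In the first table the bins outside the segment lie under the dashed line as well.

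**Figure D2:**
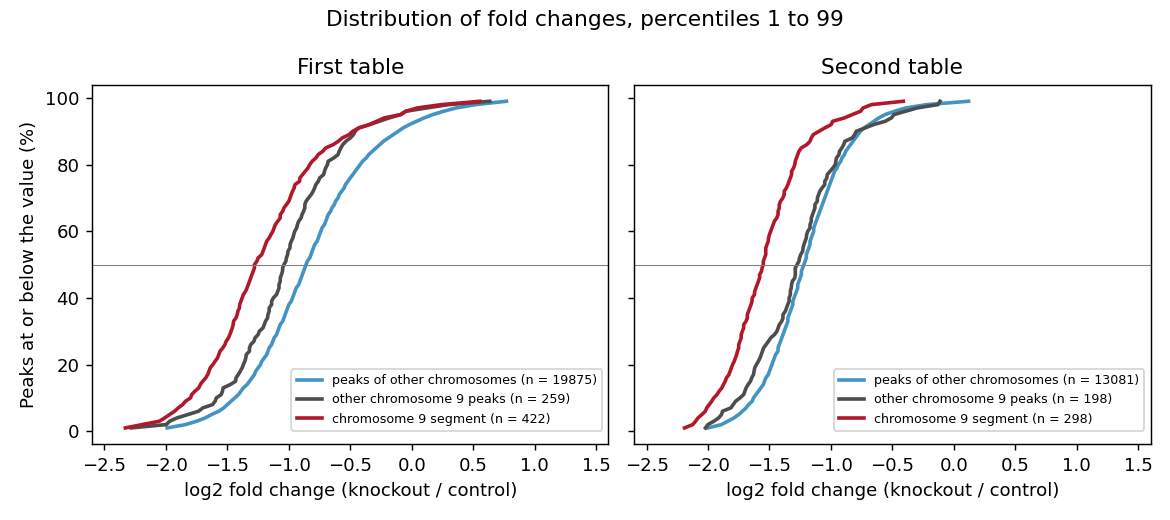
Share of peaks at or below each log2 fold change for the segment, the other chromosome 9 peaks and the peaks of other chromosomes, from percentile 1 to 99. The segment curve lies to the left through the middle of both distributions, and in the first table it meets the curve of the other chromosome 9 peaks at the upper end.

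The shift ran through most of the members rather than a few. Of the 422 first-table peaks, 327 (77.5%) lay below the median of the whole table, as did 253 of 298 (84.9%) in the second. Among the other chromosome 9 peaks it was 172 of 259 (66.4%) and 106 of 198 (53.5%). On the long arm before the segment it was 25 of 30 (83.3%) and 14 of 21 (66.7%), so the first-table share was not particular to the segment. A log2 fold change of −1 or lower, as deposited and not centred, was found at 293 of 422 segment peaks (69.4%) in the authors' first deposited table. There 38.9% of all peaks reached it, and 142 of the 259 other chromosome 9 peaks (54.8%). In the authors' second deposited table it was found at 274 of 298 segment peaks (91.9%), against 76.1% of all peaks and 155 of the 198 other chromosome 9 peaks (78.3%). The median of all second-table peaks, −1.23, is itself under this cut, so the cut does not single out low peaks there. At −1.5 or lower there were 118 segment peaks (28.0%) in the first table, with 8.51% of all peaks, and 177 (59.4%) in the second, with 19.5% of all peaks. After centring on the table median, 34 segment peaks (8.06%) of the first table and 1 (0.336%) of the second were at −1 or lower. The shares of all peaks were then 1.98% and 0.206%. Because the segment was chosen for low fold changes, nothing is read from the excess over these background shares. Higher in the knockout were 15 of 422 segment peaks in the first table and 2 of 298 in the second. Over all peaks it was 1532 of 20556 and 182 of 13577, and over the other chromosome 9 peaks 10 of 259 and 2 of 198. Such peaks were thus few outside the segment too.

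No segment peak passed the authors' own test. An adjusted p under 0.05 was reached by 0 of 422 and 0 of 298 segment peaks, and by 0% of all peaks in either of the authors' deposited tables. The smallest first-table adjusted p in the segment was 0.731 and the smallest second-table one 0.578, which are also the smallest values of the whole tables. At an unadjusted p under 0.05, 21 segment peaks of the authors' first deposited table were lower in the knockout (1.5% of all its peaks were), and 0 of the second (0.125% of all its peaks). The folds that follow are thus sizes, not calls.

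The 2 mapped libraries of the second table show the same picture in reads. The segment took 39394 of the 2091322 reads in peaks of the knockout library, 1.88% (exact binomial 95% interval 1.87 to 1.90), and 127465 of 5350832 in the control library, 2.38% (2.37 to 2.40). The share in the knockout was 0.791 times that in the control. Over the other chromosome 9 peaks the shares were 1.49% and 1.58%, a ratio of 0.946. These intervals cover counting error only, and 1 library per group says nothing of the spread between cultures. A typical segment peak was well covered: the median was 120 reads in the knockout and 362 normalised reads in the control, with ranges of 26.9 to 434 and 39.4 to 1370.

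Cutting the segment into 12 bins of 5 Mb gave 12 of 12 medians below the table median in both deposited tables. In the authors' first deposited table they ran from −1.46 at 95 to 100 Mb to −1.03 at 115 to 120 Mb, a bin of only 7 peaks. In the authors' second deposited table they ran from −1.75 at 100 to 105 Mb to −1.43 at 130 to 135 Mb. The first-table bins of chromosome 9 outside the segment also all lay below the table median. The bin from 65 to 70 Mb, with 9 peaks, was at −1.54, lower than any segment bin of that table. Second-table bins outside the segment lay on both sides of the table median. The bins from 95 to 115 Mb were low in both tables and the last bins before the end of the segment were closer to the median of all peaks. Peaks were unevenly spread: 4 bins of the first table and 6 of the second held under 20 peaks, and the gene-rich stretch from 125 to 130 Mb alone held 92 and 83. With the members of both tables pooled, the longest distance without one, 2.56 Mb, lay between positions 101533812 and 104094122, and distances within the second table alone were longer.

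The boundaries do not mark a change in the same way at both ends. Just outside the first boundary lay the promoters of TRPM6, a magnesium channel, and of CARNMT1-AS1, with log2 fold changes of −2.34 and −1.89 in the authors' first deposited table. Just inside lay CARNMT1, a carnosine methyltransferase, at −1.39 and OSTF1, an osteoclast-stimulating factor, at −1.22 in the same table. The first-table peaks outside were therefore lower than those inside. In the authors' second deposited table a peak without annotation at chr9:74770608-74771282 and CARNMT1-AS1 were at −2.02 and −1.70 outside. Inside, CARNMT1 and OSTF1 were at −1.77 and −1.58. The 18 first-table peaks between 70 Mb and the first boundary had a median of −1.42, and the 9 second-table peaks there one of −1.74, with all 9 at −1 or lower. Nearer the centromere the 12 second-table peaks before 70 Mb had a median of −1.055, while the 12 first-table peaks there were at −1.455. So the low values started before the first boundary, and the 2 tables place that start differently.

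At the other end the tables differed less. The last members were an intergenic peak 57143 bp from the RXRA start site, at −1.25 and −1.59 in the authors' first and second deposited tables, and, before it, RNU6ATAC at −1.35 in the first and BRD3 at −1.28 in the second. The next peaks outside were in introns of KCNT1, a potassium channel gene, at 0.26 in the first table and CAMSAP1, a microtubule minus-end protein, at −1.84 and −1.89. The second-table peak after CAMSAP1, without annotation at chr9:135907267-135908466, was at −1.05. From the last boundary to the end of the chromosome the median was −0.95 over 43 first-table peaks and −1.345 over 50 second-table peaks. The short arm stood at −1.01 over 186 and −1.22 over 127 peaks. Against the other 21 autosomes, whose medians ran from −1.07 to −0.63 in the first table and from −1.51 to −0.995 in the second, the segment medians of −1.28 and −1.55 lay below the range, closely in the second table. The autosome medians cover whole chromosomes, while the segment is a stretch chosen for low values, so nothing is read from this order. Stretches of like size on other chromosomes were not compared here.

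Fold changes depended on how strong a peak was, so the segment was also compared at matched level. All peaks of a table were cut by mean level into 5 groups of equal size. In the authors' first deposited table the segment differed from the other chromosome 9 peaks by −0.025 in the weakest group, then by −0.16, −0.245, −0.26 and −0.30 up to the strongest. In the authors' second deposited table the differences were −0.42, −0.17, −0.24, −0.36 and −0.275. The segment was lower in each group of both tables, but in the weakest first-table peaks the difference was close to nothing. After the median of 20 level bins was subtracted from each peak, segment medians were −0.37 and −0.31, against −0.13 and −0.045 for the rest of chromosome 9.

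**Figure D3:**
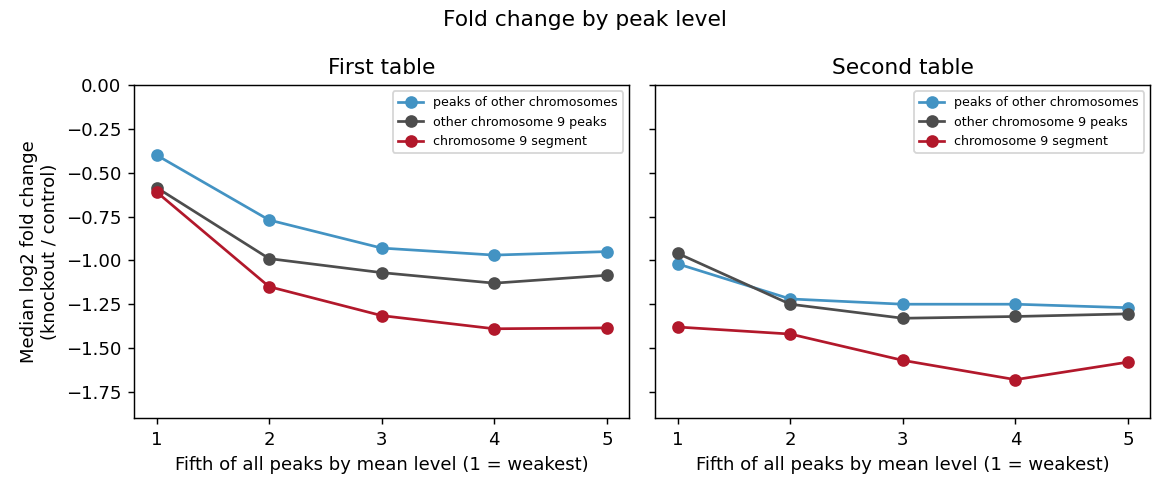
Median log2 fold change in 5 groups of all peaks ordered by mean level, from weakest to strongest, for the segment, the other chromosome 9 peaks and the peaks of other chromosomes. The segment line is lowest in each group of both tables, with a difference of −0.025 from the rest of chromosome 9 in the weakest first-table group.

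Promoters, the class the authors' annotation gives to peaks within 3 kb of a start site, made up 252 of 422 first-table members (59.7%). Their median log2 fold change in the authors' first deposited table was −1.33, against −1.07 at the other chromosome 9 promoters and −0.91 at promoters elsewhere. Intron peaks of the segment (81) had a median of −1.15 and distal intergenic peaks (67) one of −1.04. The rest of chromosome 9 had −0.90 and −0.96 in these classes, so the difference was small at distal peaks.

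In the second table peaks took the annotation of the first-table peak they overlapped, and 207 of 298 members were promoters, with a median of −1.62 against −1.305 at the other chromosome 9 promoters. Outside promoters the order turned: the 41 annotated non-promoter members were 0.08 higher than the 17 such peaks of the rest of chromosome 9, with few peaks in the comparison. Segment introns were at −1.53 (19 peaks) and distal peaks at −1.51 (17), where the rest of the chromosome had −1.59 (7) and −1.74 (5) in the authors' second deposited table. In the remaining annotated classes the segment was at −1.47 and the rest of the chromosome at −1.29, with 5 peaks each. At peaks without annotation the medians were −1.325 (50 peaks) in the segment and −1.03 on the rest of the chromosome.

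Members found in both tables were stronger and lower than the others. Of the 422 first-table members, 248 (58.8%) overlapped a second-table peak, which is 83.2% of the 298 second-table members. Over all peaks the shares were 54.5% and 82.3%, so overlap was about as common in the segment. These had a median of −1.33 in the first of the authors' deposited tables and −1.60 in the second, against −1.06 and −1.325 for members of one table only. Their median mean level was 232 reads in the first table, and 79.1 in the unmatched members.

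By gene, the strongest promoter peak was taken. Of 219 segment genes in the authors' first deposited table, 176 (80.4%) were at −1 or lower, where 43.4% of all genes with a promoter peak were. In the second deposited table it was 185 of 189 (97.9%), against 83.1% of all genes. Genes with related roles were then read together in lists that were drawn up for this chromosome with earlier results known, so the counts describe and do not test.

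**Figure D4:**
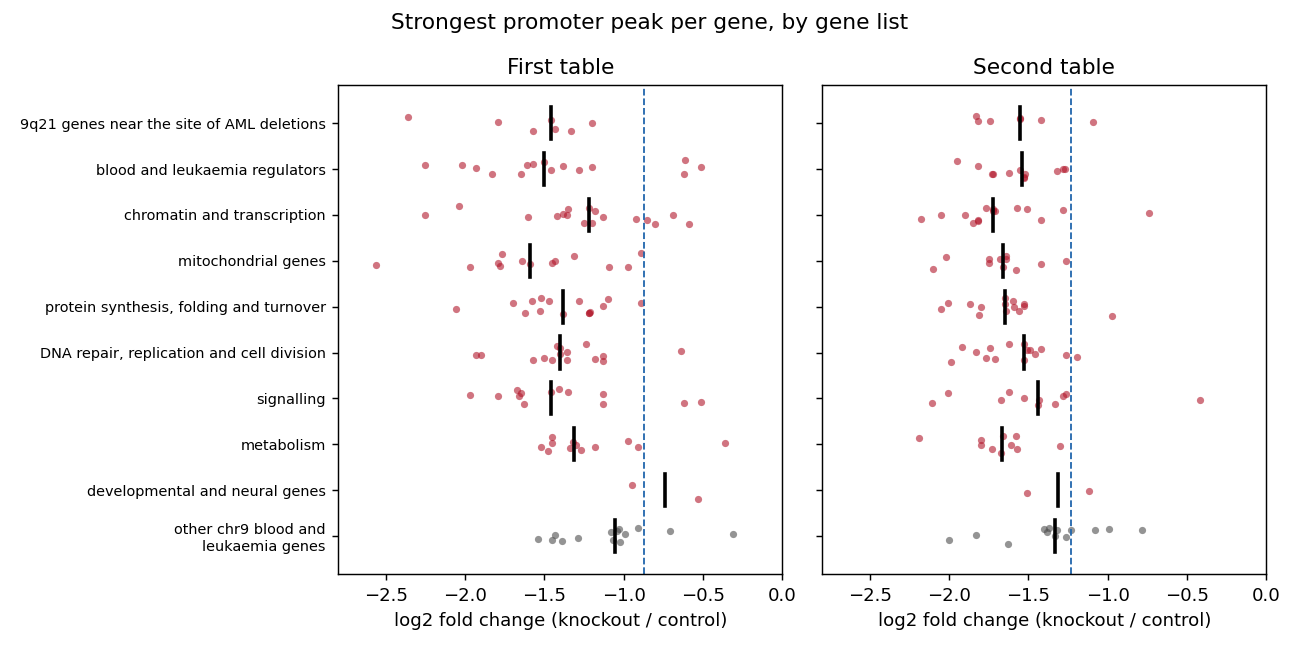
Log2 fold change of the strongest promoter peak of each listed gene in the authors' 2 deposited tables, with the list median as a black bar and the median of all peaks as a dashed line. List medians lie left of the dashed line except for the developmental genes of the first table, which rest on 2 genes, and the outside blood genes lie closest to it among the longer lists.

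Of 15 genes in and near the 9q21 stretch deleted in acute myeloid leukaemia, 7 had a promoter peak in each table, all 7 at −1 or lower, with a median of −1.46 in the first of the authors' deposited tables and −1.55 in the second. Of all segment genes 80.4% and 97.9% were at −1 or lower, with medians of −1.35 and −1.61. The shares of all genes were 43.4% and 83.1%. TLE4, the Groucho corepressor, had the strongest promoter of the list: its second-table peak at chr9:79571202-79572062 covers the start site and had 263 reads in the knockout and 929 normalised reads in the control library of replicate 2, a log2 fold change of −1.82. The first-table peak there, chr9:79571264-79572014, was at −1.20 in the authors' first deposited table. Of 2 TLE4 intron peaks in that deposited table of the authors, the one at chr9:79623887-79624709 was at −0.74 and a weak one at chr9:79611239-79611531 at −1.66. The promoter thus lay between the intron peaks of the same gene. No promoter peak was assigned to TLE1, but its divergent transcript TLE1-DT had one at −1.02 in the authors' first deposited table.

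HNRNPK, an RNA-binding protein whose loss is studied as a driver in this deletion, had 265 reads in the knockout and 776 in the control, with −1.55 in the second and −1.46 in the first of the authors' deposited tables. GKAP1, a protein that anchors a cyclic GMP-dependent kinase, had the lowest strong promoter of the segment in the authors' first deposited table, −2.36 with an unadjusted p of 0.0343, and −1.74 with 82.1 against 274 reads in the second. Its neighbour KIF27, a kinesin, was at −1.57 and −1.83, and AGTPBP1, a deglutamylase of tubulin, at −1.79 and −1.55. IDNK, a gluconate kinase, was the least changed of the list in the second table, with 132 and 280 reads and a log2 fold change of −1.09, above the median of all peaks.

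Of the blood and leukaemia regulators of the segment, 12 of the 15 with a first-table promoter peak and all 12 with an annotated second-table one were at −1 or lower. Their medians were −1.5 and −1.54 in the authors' deposited tables. These shares are close to those of all segment genes, 80.4% and 97.9%, beside 43.4% and 83.1% of all genes. ABL1, the tyrosine kinase of the BCR fusion, had 215 reads in the knockout and 622 in the control (−1.53), and −1.65 in the authors' first deposited table. NUP214 and SET, a nucleoporin and a histone chaperone that can be fused in leukaemia, were at −1.28 and −1.38 in the first table and at −1.52 and −1.72 in the second. NR4A3, an orphan nuclear receptor that restrains myeloid leukaemia in mice, was at −1.61 and −1.73. ABL1 and NR4A3 lay below the lower quartile of the segment in the first table, −1.54, and NUP214 and SET near its median.

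BRD3, a bromodomain reader of acetylated histones, showed how far single promoters can differ between the tables: it was at −2.25 in the authors' first deposited table, but at −1.28 with 226 and 549 reads in the second, close to the median of all peaks. NFIL3 (−1.93 and −1.32), a basic leucine zipper factor of innate lymphoid cells, and STRBP (−2.02 and −1.27), an RNA-binding protein, showed the same order in the authors' deposited tables. PTBP3, a splicing regulator of blood cells, was low in both, at −1.83 and −1.95. The 3 exceptions in the first table were weak peaks without a second-table partner: GFI1B, the repressor of erythroid and megakaryocyte development, at −0.61, SYK, a kinase of immune receptors, at −0.62, and TRAF1, an adaptor of tumour necrosis factor receptors, at −0.51, with mean levels of 83.3, 48.2 and 87.4 reads. Second-table peaks without annotation covered RefSeq promoter windows of SYK, at −1.56, and of TRAF1, at −0.68. They were not counted in the list, and TRAF1 would be an exception there too.

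For comparison, 18 blood and leukaemia genes of chromosome 9 outside the segment were listed. The 14 with a first-table promoter peak had a median of −1.055 and the 13 with a second-table peak one of −1.33 in the authors' deposited tables, nearer to the medians of all peaks. JAK2, the cytokine receptor kinase on the short arm, was at −1.04 and −1.32, and CDKN2A, the cell cycle inhibitor locus, at −0.91 and −1.23. KLF9, a zinc finger factor that lies before the first boundary, was lower, at −1.45 and −1.83, and SMARCA2, a remodelling ATPase on the short arm, was at −2.00 in the second table with 102 and 410 reads. Low promoters were thus found outside the segment too.

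Chromatin and transcription genes had 17 first-table promoters with a median of −1.22 and 15 second-table promoters with a median of −1.72 in the authors' deposited tables. At −1 or lower were 12 and 14 of them. Of all segment genes 80.4% and 97.9% were at −1 or lower, and of all genes 43.4% and 83.1%. The lowest in the second table was EXOSC2, a subunit of the RNA exosome, with 65.8 and 298 reads and −2.18, though it was at −0.69 in the first. GTF3C5, a subunit of the RNA polymerase III factor TFIIIC, behaved alike, at −2.05 with 144 and 596 reads in the second table and −0.80 in the first. RC3H2, a CCCH and RING protein that degrades messenger RNA, was low in both, at −2.04 and −1.77. CDK9, the kinase of elongating RNA polymerase II, was at −1.18 and −1.72. WDR5, a core subunit of the MLL methyltransferases, was among the higher ones, −0.59 in the authors' first deposited table, and ZBTB34, a zinc finger protein, at −0.85 and −0.74, was above −1 in both.

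Because the series concerns mitochondrial homeostasis, nuclear genes of mitochondrial proteins were listed as well. Of 18 genes, 13 had a promoter peak in the first table, 11 of them at −1 or lower, and 11 in the second, all 11 at −1 or lower. Their medians, −1.59 and −1.66 in the authors' deposited tables, stood beside −1.35 and −1.61 for all segment genes measured the same way, of which 80.4% and 97.9% were at −1 or lower. Of all genes 43.4% and 83.1% were. HSDL2, a peroxisomal and mitochondrial dehydrogenase, had 104 reads in the knockout and 446 in the control, −2.10 in the second table and −1.59 in the first. MRPL50, a protein of the large mitochondrial ribosomal subunit, had 137 and 556 reads, −2.02 and −1.77. These were the 2 lowest of the list in the second table.

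AUH, which hydrates an intermediate of leucine breakdown in mitochondria, had the lowest value of all 422 members in the authors' first deposited table, −2.56 at a mean level of 99.7 reads and an unadjusted p of 0.015. In the second table it was at −1.26, with 93.7 and 224 reads, near the median of all peaks. TRUB2, a mitochondrial pseudouridine synthase, was at −1.97 and −1.64, and ISCA1, which assembles iron and sulphur clusters, at −1.43 and −1.42. ENDOG, the mitochondrial endonuclease, and CRAT, carnitine acetyltransferase, were the highest in the first table, at −0.89 and −0.97. In the second they were at −1.68 and −1.58, so they stood apart in 1 table only.

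Protein synthesis, folding and turnover genes had medians of −1.38 over 15 promoters and −1.645 over 14, with 14 and 13 at −1 or lower in the authors' deposited tables. The shares at −1 or lower were 80.4% and 97.9% of all segment genes, and 43.4% and 83.1% of all genes. SECISBP2, which binds the element that recodes stop codons for selenocysteine, was the lowest in the first table at −2.06, with −1.59 and 278 against 838 reads in the second. ERP44, a chaperone that retains proteins in the endoplasmic reticulum, was the lowest in the second at −2.05, with 208 and 861 reads, and at −1.22 in the first. HSPA5, the main chaperone there, was at −1.10 and −1.56, and TXN, thioredoxin, at −1.70 and −1.80. PSMB7, a proteasome subunit, was the only one above −1 in the second table, at −0.97 with 121 and 237 reads. The lowest gene of this list thus differed between the tables.

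DNA repair, replication and cell division genes had medians of −1.40 and −1.53 over 15 promoters in each of the authors' deposited tables. XPA, which verifies damage in nucleotide excision repair, was the lowest of the list in the first table at −1.93 and the next to lowest in the second at −1.92, with 95 and 360 reads. INIP, a subunit of a single-strand DNA sensor complex, was at −1.36 and −1.99. CKS2, a cofactor of cyclin-dependent kinases, had the best covered promoter of the list, with 410 and 1370 reads, and was at −1.45 and −1.74. PPP6C, a phosphatase subunit that acts in mitosis, was at −1.18 and −1.19, above the segment median in both.

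Signalling genes stood at −1.46 over 13 and −1.44 over 11 promoters in the authors' deposited tables, and metabolic genes at −1.31 over 12 and −1.665 over 10. Among the first, SHC3, an adaptor of receptor tyrosine kinases, had 102 and 443 reads and was at −2.11 and −1.66 in the second and first deposited tables, and PTCH1, the Hedgehog receptor, was at −2.01 and −1.67 at its strongest promoter. RGS3, a regulator of G proteins, was the highest in the second table at −0.42 with 78.8 and 105 reads, but its strongest promoter peak differs between the tables. Among the metabolic genes DOLK, dolichol kinase of the glycosylation pathway, was at −2.19 in the authors' second deposited table with 99 and 452 reads, and at −1.30 in the first. PSAT1, of serine synthesis, was at −1.45 and −1.57, and PTGS1, the constitutive cyclooxygenase, at −0.36 at a weak first-table peak.

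Developmental and neural genes mostly had no promoter peak in these cells: 2 of 20 had one in either table. LHX6, a LIM homeobox gene, was the highest strong promoter of the segment in the authors' first deposited table at −0.53, and had 123 and 269 reads and −1.12 in the second. NTNG2, a netrin, was at −0.95 and −1.51. The other highest first-table promoters at or above the median level were CDC14B, a mitotic phosphatase, at −0.64 and SH2D3C, an adaptor, at −0.73. In the authors' second deposited table POMT1, a protein mannosyltransferase, led at −0.74 with 158 and 263 reads, followed by RALGDS, an activator of Ral, at −0.94 and BRD3OS at −1.05. The strongest promoter peak of RALGDS was another one, at −1.44 in that table. The strong promoters that stood highest were other genes in each table, but the level cut enters into this. LHX6 and CDC14B had mean levels of 195 and 89.9 reads in the second table, under its cut of 211, so neither could be listed there. Nothing is read from the difference.

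Among strong promoter peaks the lowest of the authors' first deposited table, after GKAP1, were a peak 2786 bp inside SLC25A25 (−2.32), BRD3, SECISBP2, RC3H2, SURF6 (−2.01), SLC71A2 (−1.97) and MAPKAP1 (−1.97). SLC25A25 encodes a mitochondrial carrier of ATP and magnesium, and its strongest promoter peak was nearer to the segment median, at −1.45 and −1.66. SURF6 is a nucleolar protein of ribosome assembly and MAPKAP1 a subunit of the TORC2 kinase complex, at −1.67 in the second table. The lowest strong promoters of the authors' second deposited table were a peak −2096 bp from a start of PHF19 (−2.22, with 97.7 and 455 reads), DOLK, SHC3, HSDL2, CTSV (−2.09), ERP44, GTF3C5 and a CNTRL peak (−2.03). PHF19 recruits the Polycomb complex PRC2 to methylated histone H3, and its strongest promoter peak was at −1.25 and −1.57. CTSV is a lysosomal protease, and CNTRL a centrosome protein whose strongest promoter peak was at −1.57 and −1.62. No gene was among the 8 lowest in both tables, and nothing is read from this. The 8 are few beside the 217 and 173 strong members, promoters and others together. The level cut also differs by table: GKAP1, at a mean level of 179 reads in the second table, was under its cut of 211.

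Away from promoters, the lowest strong members of the authors' first deposited table were introns of NIBAN2 (−2.47, unadjusted p 0.027), DENND1A (−2.33) and SCAI (−2.08) and an intergenic peak −84910 bp from the start of ZBTB43 (−1.86). In the authors' second deposited table they were an intron of AKNA (−2.10, with 89.9 and 385 reads) and an intron peak nearest to MIR4289 (−2.08, with 82.1 and 345 reads). AKNA is an AT-hook protein of lymphoid cells. The strongest of the named non-promoter members lay in an exon, −8769 bp from the start of MIRLET7A1, the first gene of the let-7 cluster of this arm, with 410 reads in the knockout and 1201 in the control and a log2 fold change of −1.55. A single strong member outside promoters was higher in the knockout in the first table, in an intron of RALGDS at 0.31 with a mean level of 154 reads. The nearest gene to such a peak need not be its target.

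The second table had 50 members without a partner in the first, and 20 of them covered a RefSeq promoter window. Among these FANCC, of the Fanconi anaemia DNA repair complex, had 144 and 501 reads and −1.80 in the authors' second deposited table, and FAM78A had 109 and 413 reads and −1.92. HDHD3, a haloacid dehalogenase-like protein, was the lowest at −2.11 with 65.8 and 284 reads. SURF1, an assembly factor of cytochrome c oxidase, had 174 and 391 reads and −1.17, and RPL7A, a ribosomal protein, 122 and 324 and −1.41. PRRT1B, with 78.2 and 76.1 reads, did not share the shift and was at 0.03.

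The letters of the promoters were compared by exact words on both strands in the 250 bases before each start site. Of RefSeq promoters of the segment that overlapped a peak (320 windows), 75.9% held GGGCGG, the word of SP and KLF factors, against 78.2% of 206 open promoters on the rest of chromosome 9, 70.4% of 12891 open promoters of the genome and 42.6% of all 35116 promoters. The ETS word CCGGAAG was in 21.6%, 18.9%, 17.4% and 8.52% of these sets, and TGTGGT, the word of RUNX factors, in 5.31%, 7.28%, 7.56% and 11%. The CRE word TGACGTCA was in 5% of segment promoters, 2.43% of open promoters on the rest of chromosome 9, 3.19% of open promoters of the genome and 1.65% of all promoters. CCAAT was in 34.1%, 29.1%, 34.3% and 32.0%. The PU.1 word GAGGAAGT was in 2.81%, 0.971%, 2.37% and 2.17%, which is 9 segment promoters.

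The other words were in fewer promoters, and their shares follow in the same order of sets. The E-box CACGTG was in 9.69%, 8.74%, 8.97% and 6.34%. The word of erythroid GATA factors, AGATAA, was in 2.5%, 3.40%, 3.54% and 9.17%. The word of AP-1, TGACTCA, was in 1.56%, 1.94%, 2.52% and 4.20%, so that these last 2 words were scarcer in open promoters generally than in all promoters. The YY1 word AAGATGGCG was in 1.88%, 0%, 1.47% and 0.652%. The NRF1 word was in 1.88%, 2.91%, 2.28% and 1.03%, and the ZBTB33 word in 1.56%, 1.94%, 0.892% and 0.373%. None of the 12 words contains another, but the ETS and PU.1 words share letters. The median GC content was 68.6% in open segment promoters, 69% on the rest of chromosome 9 and 66% over all open promoters. A word match is not a bound site, and no test of these shares was made.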

How the data were processed

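ATAC-seq was made from 4 Kasumi-1 libraries, 2 of the SETD8 knockout and 2 of the sgNT control, grouped by their titles. Tools listed without order or settings in the submitters' processing notes are Bowtie2, cutadapt, MACS2 2.1.2, SAMtools, ChIPseeker and deepTools, and the build is hg38. Read shifting for the transposase cut and duplicate removal are not given in the sources used here.

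Results were deposited as 2 peak tables. Log2 levels of the replicate 2 knockout and control libraries, their mean, a log2 fold change, a p-value and its adjusted value make up the second one, per the file headers. In the first of the authors' tables these columns have no names and were identified by order and range; 2 of its columns, of libraries that are not named, were not used. The direction of its fold change comes from the name of the table. The tables were scaled separately by the authors, so comparisons stay within a table. Levels of the knockout library were whole reads and those of the control whole reads multiplied by 0.917 (100% of weak values within 0.006 on the log2 scale), and read totals rest on this. The totals were 2091322 and 5350832 reads in peaks, which is not the sequencing depth of the libraries. That depth was not assessed here.

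Read counts per library for both groups were not used here, so the planned edgeR test was not run, and the authors' p-values stand in its place. Peaks are not replicates of a condition, and no test was made over them. Medians, quartiles and counts were computed in Python 3.11.15 with numpy 2.4.6, pandas 2.3.3, scipy 1.17.1 and matplotlib 3.10.9. Second-table peaks took the annotation of the first-table peak they overlapped most, by at least 1 bp. The short arm ends at the largest gap between chromosome 9 peaks. The trend with level was removed by subtracting the median of 20 equal-size bins, and this step was tested on simulated data. Shares of reads have exact binomial 95% intervals. Gene symbols and promoter sequences are from RefSeq, GRCh38.p14, and for genes with several windows the one over the strongest peak was printed.

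The segment, the gene lists and the motif words were chosen with earlier results of these data known. Named genes were the 8 lowest and 8 highest promoter and other peaks of each table at or above its median level, the members of the lists, and the 2 peaks on each side of each boundary. A gene takes its strongest promoter peak. EXOSC3 was listed by mistake, lies on the short arm and was not counted. Other peaks and genes named (FANCC and further second-table peaks without partner, KMT5A, AUH, TLE1-DT) were chosen after their values were seen. Alternatives varied the comparison peaks, the boundaries, the level, the class, the overlap, the fold size and the centring.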

Additional observations from a re-analysis of the deposited data

How the results depend on the processing

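Segment minus other chromosome 9 peaks, the difference was negative in 13 of 13 alternatives in the first table, where it was −0.24 and 10 stayed within 1.5 times, and in 12 of 13 in the second, where it was −0.275 and 11 did. With only the rest of the long arm for comparison it was −0.11 and −0.16, with all peaks outside chromosome 9 −0.42 in the first table, and outside promoters −0.15 in the first and 0.08 in the second, where it reversed with 41 against 17 peaks. Of these alternatives, 3 per table were chosen after seeing the data (the short arm alone, −0.27 and −0.33; the first boundary at 70 Mb, −0.26 and −0.31; bins of at least 20 peaks, −0.22 and −0.265). The share of segment peaks at −1 or lower was 69.4% and 91.9%, beside 38.9% and 76.1% of all peaks. After centring on the table median it was 8.06% and 0.336%, beside 1.98% and 0.206%. After removing the level trend it was 8.53% and 0.336%, beside 2.86% and 0.464%. The 0.336% stands for 1 segment peak, so the second table shows no clear excess in these 2 settings. Among strong peaks the share was 84.8% and 98.8%, beside 47.4% and 85.8% of all strong peaks. At −1.5 or lower it was 28.0% and 59.4%, beside 8.51% and 19.5%. Of reads in chromosome 9 peaks, the segment took 55.8% in the knockout and 60.1% in the control; of reads in promoter peaks it took 1.88% and 2.41%. The authors' unadjusted p under 0.05 gave 21 segment peaks in the first table in place of 0, and 0 in the second.

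No paired analysis was possible because the libraries of the first table are not named and the second table holds 1 replicate number; leaving out a replicate was not run for the same reason. Depth limits weak peaks most, and their fold changes lay nearer to 0 in both tables.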

Other observations

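MicroRNA genes of the segment were looked up as well. RefSeq places 40 hairpins there, and 7 lay within 3000 bp of a peak. The hairpins of MIR199B and MIR3154 overlap 1 peak of the authors' second deposited table, chr9:128244740-128245300, which had 67.2 reads in the knockout, 164 in the control and a log2 fold change of −1.29. MIR3960 lies inside a promoter peak that the annotation gives to MIR2861, at −1.68 in the authors' first deposited table and at −1.36 with 232 and 600 reads in the second. MIR3651 lies 1079 bp from the promoter peak of IARS1, an isoleucine transfer RNA synthetase, which was at −1.52 and −1.65 in the authors' deposited tables. A peak near a hairpin need not be its promoter.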
